A study of Mus musculus with 12 samples.

Results

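The cytosolic ribosomal protein genes were the 28 mouse genes whose symbol begins with Rpl or Rps followed by a digit, or is Rplp1 or Rplp2, without the Rps6k kinases and pseudogenes. They were represented by 29 of the 9558 probes of a spotted cDNA array, each probe carrying a single gene symbol. Rps6 had 2 probes and every other gene had 1. By role, 11 of the genes encode proteins of the small subunit, 12 encode proteins of the large subunit, 2 encode stalk proteins and 3 are paralogs or relatives that are not usual subunits by name (Rpl39l, Rps4l and Rpl7l1). Rplp0, Rpsa, Rpl5 and Rpl11 were not among the genes analysed here.

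Ribosomal proteins assemble with ribosomal RNA in the nucleolus into the small subunit, which reads the mRNA, and the large subunit, which joins the amino acids. Their mRNAs are among the most abundant of a growing cell and begin with a run of pyrimidines that places their translation under the control of the mTOR pathway and Larp1. Basal keratinocytes, the dividing cells of the epidermis, leave the cell cycle and stratify when extracellular calcium rises. DeltaNp63alpha is the p63 isoform of basal keratinocytes that lacks the N-terminal transactivation domain.

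The arrays compared RNA of primary skin keratinocytes from C57Bl/6NCr mice that had received an adenovirus for deltaNp63alpha with RNA of such cells that had received an adenovirus for beta-galactosidase, the control. All cells were thus virus-treated, and RNA was isolated by TRIzol 41 h after transduction. Cells were held for 24 h at 0.05 mM calcium (low calcium) or at 0.12 mM (high calcium, raised per the labels to induce differentiation). Each calcium level had 3 repeats, and each repeat was hybridised once with deltaNp63alpha RNA in Cy5 (forward) and once with it in Cy3 (reversed), which gave 12 arrays or 6 dye-swap pairs. No array set low against high calcium RNA directly. The labels call the arrays technical repeats and do not say that cultures or animals were separate. The p-values thus measure only a spread between pairs, which may be technical. The test used (limma) draws each row's spread towards the spread common to all rows.

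The deposited values were log2 ratios of both dyes, and each array was set to a median of 0. They were read as Cy5 over Cy3, so that (forward - reversed)/2, called the turned ratio below, is the log2 ratio of deltaNp63alpha over beta-galactosidase. This direction was assumed and is not settled: no source used here names the numerator, and in the labels deltaNp63alpha is channel 2 on reversed arrays too. The kept-sign ratio, (forward + reversed)/2, is given beside it and would be the effect if the reversed arrays had been turned before deposit. The Trp63 row did not settle the question, because its turned ratio was -0.16 ± 0.25 (SE, n = 2 pairs) in low and -0.55 ± 0.25 (SE, n = 2 pairs) in high calcium and its kept-sign ratio was -0.83 and 0.16, with no adjusted p of limma under 0.05, and whether its probe reads the viral transcript is not known. Serpinb5 (maspin), which the series title names as negatively regulated, had turned ratios of -0.80 ± 0.16 (SE, n = 3 pairs) and -0.89 ± 0.19 (SE, n = 2 pairs) and passed the test at both levels (limma adjusted p = 0.04998 and 0.0388). Its kept-sign ratio is not given here. Forward and reversed values of all probes correlated above 0 in every pair, at 0.13 to 0.71, and what sets this was not tested. Between 35.2% and 95.2% of all probes had a value on an array, and both arrays with the fewest belonged to high calcium repeat 3. Ratios give no level: 6 of 11 keratinocyte markers had a value on 4 to 10 arrays, but so did 4 of 6 fibroblast markers on 7 to 12, which neither bears out nor contradicts the cell type on the labels.

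Member probes had a value on 1 to 12 arrays with a median of 8, the same median as over all probes. At each calcium level the test needed 2 or more pairs with a value on both arrays, which held for 15 member genes in low and 21 in high calcium. All 15 were tested at both levels, and 7 genes were tested at neither (Rpl13, Rpl35a, Rps15a, Rps24, Rps29, Rps3a1 and Rplp1). Rplp1 gave a value on a single array, 0.53 on the forward array of high calcium repeat 2. In RNA from whole cultures a lower ratio can come from fewer cells of a type or from less of the mRNA per cell, and these cannot be told apart.

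The start sites of the genes are shown because a pyrimidine run at the mRNA's first base is the sequence feature that ribosomal protein mRNAs are known for. Windows of 30 bases, 15 before and 15 from the RefSeq start on (GRCm38.p6), were read for 21 of the 28 genes. The letters CTTTC, in capitals below, stood on the gene's strand in 10 of the 21 genes (47.6%), against 4.76% of the 27025 genes with such a window. On the other strand they stood in 1 of the 21 (4.76%) against 4.21% of all. A pyrimidine run of at least 8 bases occurred in 12 of the 21 (57.1%) against 13.9% of all. These counts took any place in the window, also before the start, so they are not counts of runs at the first base. The motif was chosen after these windows were viewed, and RefSeq starts can differ from those used in keratinocytes. Rplp2 (chr7:141447636-141447665, plus strand), Rpl28 (chr7:4792950-4792979, plus strand), Rpl35 (chr2:39005117-39005146, minus strand) and Rps26 (chr10:128626492-128626521, minus strand) had the letters. Rps6 (chr4:86857353-86857382, minus strand) had a pyrimidine run of 10 bases without them, and in Rpl7l1 (chr17:46782642-46782671, minus strand) the longest run was 2 bases.
Rplp2: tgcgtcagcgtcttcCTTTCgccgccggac
Rpl28: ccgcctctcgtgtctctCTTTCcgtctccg
Rpl35: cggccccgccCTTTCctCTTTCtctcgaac
Rps26: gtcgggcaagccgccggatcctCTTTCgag
Rps6: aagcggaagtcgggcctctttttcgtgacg
Rpl7l1: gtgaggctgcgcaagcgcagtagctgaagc
In Rplp2 the letters began at the start base itself, and Rpl35 held them at 2 places. Among the genes of mitochondrial ribosomal proteins 0 of 25 had the letters, among ribosome biogenesis factors 1 of 37 and among translation factors 3 of 19.

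With deltaNp63alpha in low calcium, no ribosomal protein gene passed the test, and most turned ratios lay slightly below 0. Of the 15 genes tested, 0 were called at a limma adjusted p under 0.05, where 0.409% of all 4646 rows were called (19 rows), and 0 of the 15 had an unadjusted p under 0.05 against 9.45% of all rows. Their median was -0.24, with a range from -0.32 to 0.14, and the median of all rows was 0.02. Below 0 were 12 of the 15, against 46.5% of all rows. Standard errors were 0.14 to 0.21 and the adjusted p-values 0.591 to 0.978. All 15 estimates lay within 2 standard errors of 0.

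All 6 small-subunit genes tested in low calcium were below 0, with a median of -0.18. Rps6, the subunit protein that S6 kinases phosphorylate downstream of mTOR, had turned ratios of -0.25, -0.32 and -0.22 in the 3 pairs. All 3 pairs were below 0 and close together, at -0.26 ± 0.14 (SE, n = 3 pairs; limma adjusted p = 0.591; 95% interval -0.56 to 0.04). Rps23, a protein of the decoding centre, was -0.17 and -0.45 in the 2 pairs measured, and Rps14 was -0.24, -0.11 and -0.25 in its 3 pairs. Rps13 had pairs on either side of 0, at 0.12 and -0.26. The other 2 genes, Rps15 and Rps26, were -0.14 and -0.15.

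Of the 7 large-subunit genes tested in low calcium, 5 were below 0, with a median of -0.25. Rpl6 was -0.09 and -0.53 in its 2 pairs, and Rpl21 was -0.56 and 0.01, so that a single pair, low calcium repeat 2, gave most of each estimate (-0.31 and -0.28). Rpl27a was above 0 through the same repeat alone, at -0.07, 0.51 and -0.03 in the 3 pairs. Rpl7, a large-subunit protein, stood near 0 at -0.03 and 0.10. Rpl35, which lies at the exit of the peptide tunnel, was -0.23, -0.41 and -0.12, below 0 in each of its 3 pairs. The stalk protein gene Rplp2, whose product helps to recruit elongation factors, was -0.35 and -0.30 in its 2 pairs, the lowest estimate of the set (-0.32 ± 0.18, SE). Of the paralogs, Rpl39l, a relative of Rpl39 best known from testis, was 0.02 and 0.19.

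**Figure D1:**
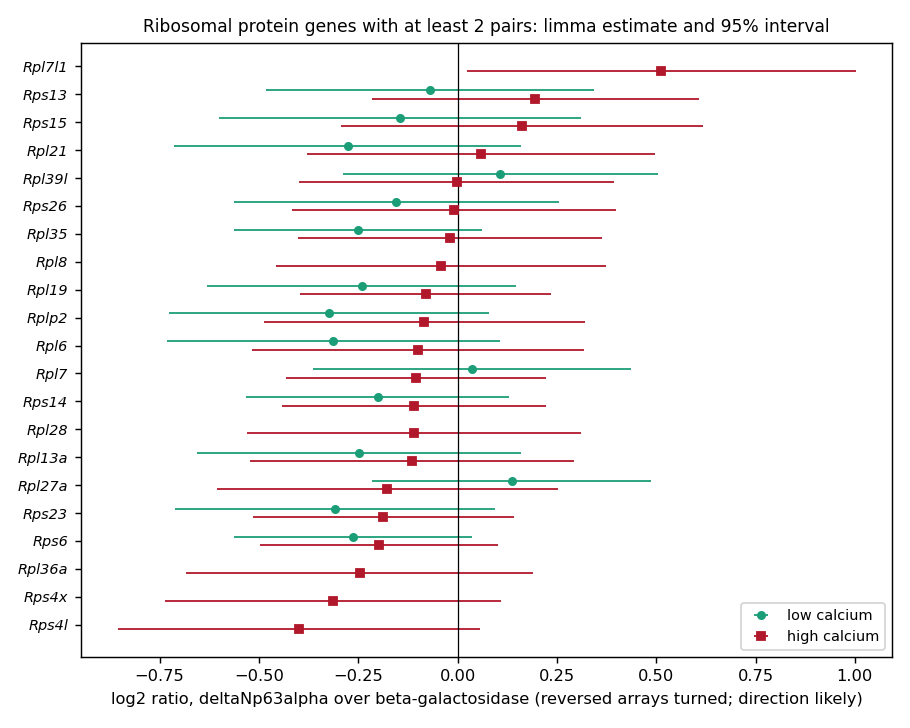
Estimated turned log2 ratio, read as deltaNp63alpha over beta-galactosidase, of the 21 ribosomal protein genes with at least 2 pairs. Points are limma estimates and bars their 95% intervals in low (circles) and high calcium (squares). In low calcium every interval crosses 0, and in high calcium every interval except that of Rpl7l1 crosses 0.

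In high calcium no ribosomal protein gene passed the test either. Of the 21 genes tested, 0 were called, where 1.39% of all 7263 rows were called (101 rows). An unadjusted p under 0.05 was reached by 1 of the 21, Rpl7l1, and by 11.6% of all rows. The median was -0.10, with a range from -0.40 to 0.51, against a median of 0.01 over all rows. Which level lay further from 0 depended on the processing: the medians were -0.16 in low and -0.23 in high calcium once the arrays were scaled to the same spread. Without the pairs with few values they were -0.09 and -0.11, but the -0.09 came from low calcium repeat 1 alone, over 13 genes. Below 0 were 17 of the 21, against 49.4% of all rows. The limma adjusted p-values ran from 0.399 to 0.996.

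Among the 7 small-subunit genes tested in high calcium the median was -0.11, and 5 were below 0. Rps6 was -0.06, -0.36 and -0.17 in the 3 pairs (-0.20 ± 0.14, SE; limma adjusted p = 0.691), below 0 in each pair as in low calcium. Rps4x, the X-linked small-subunit gene, was -0.19 and -0.44. Rps13 was above 0 in both pairs, at 0.14 and 0.25, and Rps15 lay on either side of 0, at -0.09 and 0.41. Rps14 was 0.10, -0.49 and 0.06, so that only repeat 2 was below 0.

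Of the 10 large-subunit genes tested in high calcium 9 were below 0, all between -0.25 and -0.02, with a median of -0.10. Rpl36a was -0.04 and -0.45 in its 2 pairs, and Rpl27a was -0.31 and -0.04. Rpl21, the gene above 0, was -0.05 and 0.17. Rplp2 of the stalk was -0.23 and 0.07. High calcium repeat 2 was the low value in each of Rpl36a, Rpl27a, Rpl21 and Rplp2, and its median over the 26 member genes with a pair value was -0.23, against -0.04 in repeat 1 and 0.02 in repeat 3.

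Both extremes in high calcium were relatives of ribosomal protein genes. Rps4l, an Rps4-like gene, was -0.12 and -0.68 in its 2 pairs (-0.40 ± 0.21, SE; limma adjusted p = 0.531), and -0.59 in the single low calcium pair. Rpl7l1, whose product resembles Rpl7 and is found in precursors of the large subunit, was 0.90 and 0.13 (0.51 ± 0.22, SE; limma adjusted p = 0.399), and 1.23 in the single low calcium pair. On single arrays Rpl7l1 read 1.53 forward and -0.94 reversed in low calcium repeat 1, 1.24 and -0.55 in high calcium repeat 1, and 0.49 and 0.23 in high calcium repeat 2. It thus changed sign with the dye in 2 of its 3 pairs. Arrays without a partner read 0.19 (forward, low calcium repeat 2) and -1.05 (reversed, low calcium repeat 3).

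No ribosomal protein gene had a turned ratio that differed between calcium levels by the test. Of the 15 genes tested at both levels 0 were called for high minus low calcium, where 0% of all 4209 rows were called, and 0 of the 15 reached an unadjusted limma p under 0.05 against 107 of all rows (2.54%). The differences ran from -0.31 (Rpl27a) to 0.34 (Rpl21), with a median of 0.15 and standard errors of 0.20 to 0.29. Of the 15 differences 12 were above 0, but only 3 were above 0 once the arrays were scaled to the same spread. For Rps6, measured in all 6 pairs, the difference was 0.07 with a 95% interval from -0.36 to 0.49, and for Rpl21 it was 0.34 with an interval from -0.28 to 0.95.

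On the single arrays the ribosomal protein probes read above 0 whichever dye carried the deltaNp63alpha RNA, so that much of their ratio cancelled in the turned value. Of their 232 array values 207 were above 0 (89.2%), against 49.96% of the values of all probes. On forward arrays 104 of 119 were above 0 and on reversed arrays 103 of 113. The median of the member probes was above 0 on every array. In low calcium it was 0.26 forward and 0.46 reversed in repeat 1, 0.58 and 1.34 in repeat 2, and 0.99 and 1.17 in repeat 3. In high calcium it was 0.06 and 0.14 in repeat 1, 0.22 and 0.68 in repeat 2, and 1.18 and 1.25 in repeat 3. The reversed array of each pair read higher than the forward one, and the repeats with the fewest probe values (repeats 2 and 3 of low calcium, repeat 3 of high calcium) read highest on both.

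**Figure D2:**
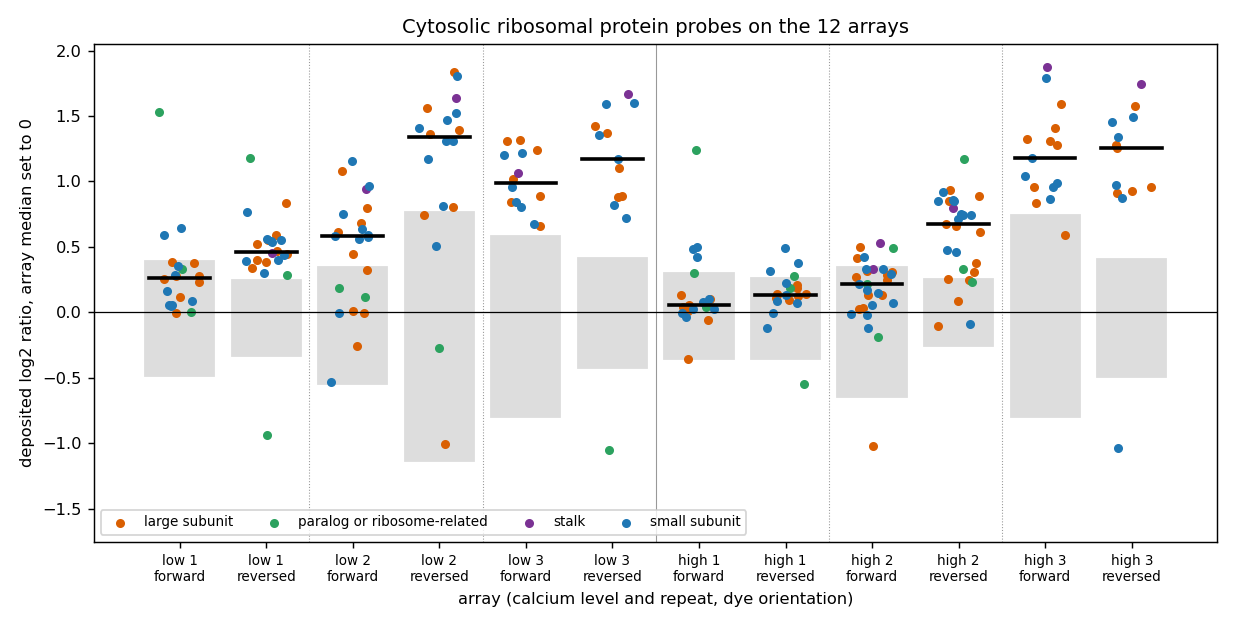
Deposited log2 ratio of each ribosomal protein probe on the 12 arrays, with the array median set to 0; black lines are the medians of the member probes and grey boxes the interquartile range of all probes on that array. The member median lies above 0 on all 12 arrays, from 0.06 to 1.34, and above the grey box on 8 of them.

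Rplp2 read 0.45 on the reversed array of low calcium repeat 1, 0.94 forward and 1.64 reversed in repeat 2, and 1.07 and 1.67 in repeat 3. In high calcium it read 0.33 and 0.79 in repeat 2, and 1.88 and 1.74 in repeat 3. All 9 values were above 0, and forward and reversed arrays overlapped. Rps6, averaged in the fit over its 2 probes, read between 0.06 and 1.36 in low and between -0.04 and 1.34 in high calcium with the first probe. The second probe read between 0.55 and 1.60 in low and between -0.01 and 1.49 in high calcium. In both probes repeat 3 was the highest at each calcium level within each dye orientation, and the second probe had no value on the forward arrays of repeat 1.

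Rpl19, a large-subunit protein at the contact between subunits, read 0.52 on the reversed array of low calcium repeat 1, 0.80 and 1.36 in repeat 2, and 1.02 and 1.42 in repeat 3. Its high calcium values were 0.01 and 0.11 in repeat 1, 0.31 and 0.85 in repeat 2, and 1.41 and 1.25 in repeat 3. Rps26, a protein near the mRNA exit channel, read 0.59 and 0.56 in low calcium repeat 1, 1.16 and 1.81 in repeat 2, 0.43 and 0.31 in high calcium repeat 1, and 0.33 and 0.48 in repeat 2. Every one of these values of Rpl19 and Rps26 was above 0, and forward and reversed arrays overlapped. The 24 values below 0 came from 15 of the 29 probes, among them Rpl13 (-0.26, -0.35 and -1.02 on 3 forward arrays) and Rps4x (-0.53 on the forward array of low calcium repeat 2 and -1.03 on the reversed array of high calcium repeat 3).

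As pairs, both arrays were above 0 in 76 of the 95 pair values of member genes (80.0%), against 32.5% of the pair values of all rows. The kept-sign part was larger than the turned part in 76 of the 95 (80.0%), against 63.2% over all rows. The turned ratio was below 0 in 69 of the 95 against 48.3% over all rows. By role, both arrays were above 0 in 30 of 38 pair values of the small subunit, 37 of 43 of the large subunit, 4 of 4 of the stalk and 5 of 10 of the paralogs. Median turned ratios of the pairs were -0.12, -0.34 and -0.15 in low and -0.04, -0.23 and 0.02 in high calcium, and median kept-sign ratios were 0.32, 0.96 and 1.22 in low and 0.14, 0.39 and 1.16 in high calcium. The forward and reversed values of all probes correlated at 0.22, 0.71 and 0.61 in the low calcium pairs and at 0.13, 0.25 and 0.53 in the high calcium pairs, over 2460 to 8770 probes that share their array. What sets this common part was not tested.

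**Figure D3:**
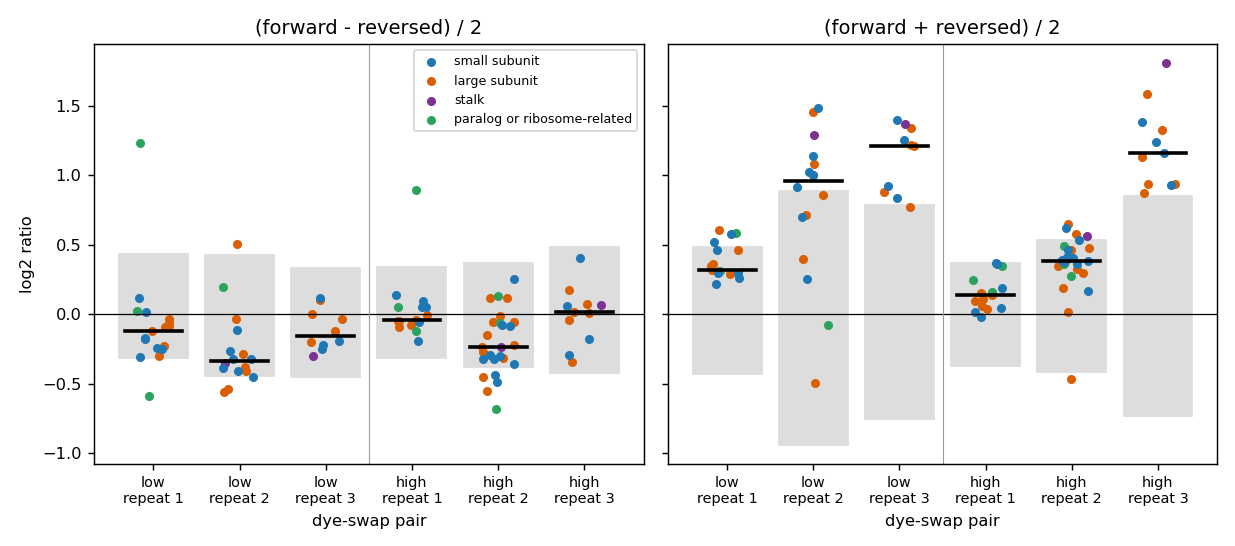
Pair values of the ribosomal protein genes in log2 units, as (forward - reversed)/2 on the left and (forward + reversed)/2 on the right, with lines at the member median and grey boxes at the median ± SD of all rows. The left medians lie between -0.34 and 0.02, and the right ones between 0.14 and 1.22.

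Read with the deposited signs kept, 4 ribosomal protein genes passed as higher in low calcium and none in high calcium. No gene was called for the kept-sign difference between the levels: 0 of 15 passed, where 0% of all 4209 rows did. The median difference, high minus low calcium, was -0.14, and the smallest limma adjusted p was 0.918. In low calcium 4 of 15 passed, where 6.56% of the 4646 rows passed as higher and 16.4% in either direction. They were Rplp2 (1.33 ± 0.30), Rpl19 (1.15 ± 0.28), Rps26 (1.03 ± 0.25) and Rpl7 (0.96 ± 0.25), each with an SE over 2 pairs and with limma adjusted p-values from 0.0404 to 0.0443. All 15 were above 0 against 51.1% of all rows, and the median was 0.82 (range 0.12 to 1.33). The count changed when single pairs were left out, and so did the genes that could be tested. The share of all rows that passed was not counted in these runs, so their counts do not single out the ribosomal protein genes. Without low calcium repeat 1, 8 of 9 testable genes passed, and Rps26 was not testable. Without low calcium repeat 2, 0 of 4 passed, but none of the 4 called genes was testable. Without low calcium repeat 3, 0 of 10 passed, and Rps26 was the only called gene among them. The count was 2 of 15 without high calcium repeat 1 and 10 of 15 without high calcium repeat 3. None passed when arrays were centred on the probes with a value on all 12 arrays. In high calcium 0 of 21 passed, where 0% of the 7263 rows passed, and the adjusted p-values of limma ran from 0.181 to 0.581. Unadjusted p-values under 0.05 were reached as higher by 6 of the 21 and by 5.8% of all rows. All 21 were above 0, with a median of 0.42 and a range from 0.20 (Rpl8) to 1.19 (Rplp2).

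Other gene groups of protein synthesis held 1 call in all by the turned ratio. Over all rows 0.409% were called in low and 1.39% in high calcium. Of the mitochondrial ribosomal proteins, which build the separate ribosome of that organelle, 0 of 22 passed in low and 0 of 30 in high calcium, with medians of -0.02 and 0.04. The smallest p among them in low calcium was that of Mrpl4, at 0.38 (limma adjusted p = 0.457), and in high calcium that of Mrps12, at -0.47 (limma adjusted p = 0.217). Of the factors that assemble ribosomes, 0 of 25 passed in low calcium and 1 of 41 in high calcium, with medians of 0.00 and -0.05. The one was Exosc2, a subunit of the RNA exosome that trims ribosomal RNA, at 1.61 and 1.06 in its pairs (1.33 ± 0.21, SE; limma adjusted p = 0.0143) and 1.90 in the single low calcium pair. Of the translation factors 0 of 16 and 0 of 25 passed, with medians of -0.14 and -0.18. Their lowest member in both was Pabpc1, the poly(A)-binding protein, at -0.76 and -1.07 (limma adjusted p = 0.412 and 0.120). Eif4g2, an initiation factor related to Eif4g1, had the smallest p in low calcium, at -0.52 (limma adjusted p = 0.323).

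Fau, which encodes a ubiquitin-like protein fused to a small-subunit protein, and Naca, a chaperone at the ribosome's exit tunnel, belong to the translation machinery without an Rp symbol. Their turned ratios were -0.15 and -0.14 in low and -0.06 and 0.06 in high calcium, and both arrays were above 0 in 12 of their 12 pair values. The same share was 64 of 137 for mitochondrial ribosomal proteins (46.7%), 69 of 185 for biogenesis factors (37.3%) and 48 of 104 for translation factors (46.2%). With the signs kept, Fau (0.96) and Naca (0.84) passed as higher in low calcium, where 6.56% of all rows did. The counts passing as higher were 5 of 22 mitochondrial ribosomal proteins (Mrpl1, Mrpl13, Mrpl19, Mrpl21 and Mrps18b), 2 of 16 translation factors (Eef1g and Eif3d) and 0 of 25 biogenesis factors. Median kept-sign ratios in low calcium were 0.82 for the cytosolic ribosomal proteins, 0.42 for translation factors, 0.22 for mitochondrial ribosomal proteins and 0.19 for biogenesis factors, against 0.02 over all rows. Whether the groups differ was not tested.

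Of the regulators that act on ribosomal protein mRNAs or through which free ribosomal proteins signal to p53, 6 were tested and 0 passed by the turned ratio at either level. Eif4ebp1, the inhibitor of cap-dependent translation that mTOR switches off, was -0.28, -0.06 and -0.73 in low and -0.45, -1.24 and -0.50 in high calcium, below 0 in all 6 pairs (high calcium -0.73 ± 0.18, SE; limma adjusted p = 0.0761). Mdm2, the p53 ligase that Rpl5 and Rpl11 bind, was -0.51 at both levels and below 0 in all 5 of its pairs (limma adjusted p = 0.406 and 0.173). Mdm4, the partner of Mdm2, was -0.53 in low and -0.19 in high calcium (limma adjusted p = 0.323 and 0.773). Myc, an activator of ribosomal protein genes, was 0.04 in low and -0.47 in high calcium (limma adjusted p = 0.230). Larp1, which binds the pyrimidine start of these mRNAs, was -0.06 and 0.01. Mtor was 0.31 in low calcium, from pairs at 0.47, 0.71 and -0.24, and -0.03 in high calcium (limma adjusted p = 0.619 and 0.963). With the signs kept, Mtor was lower in low calcium (-1.21, limma adjusted p = 0.0260), where 9.86% of all rows passed as lower.

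**Figure D4:**
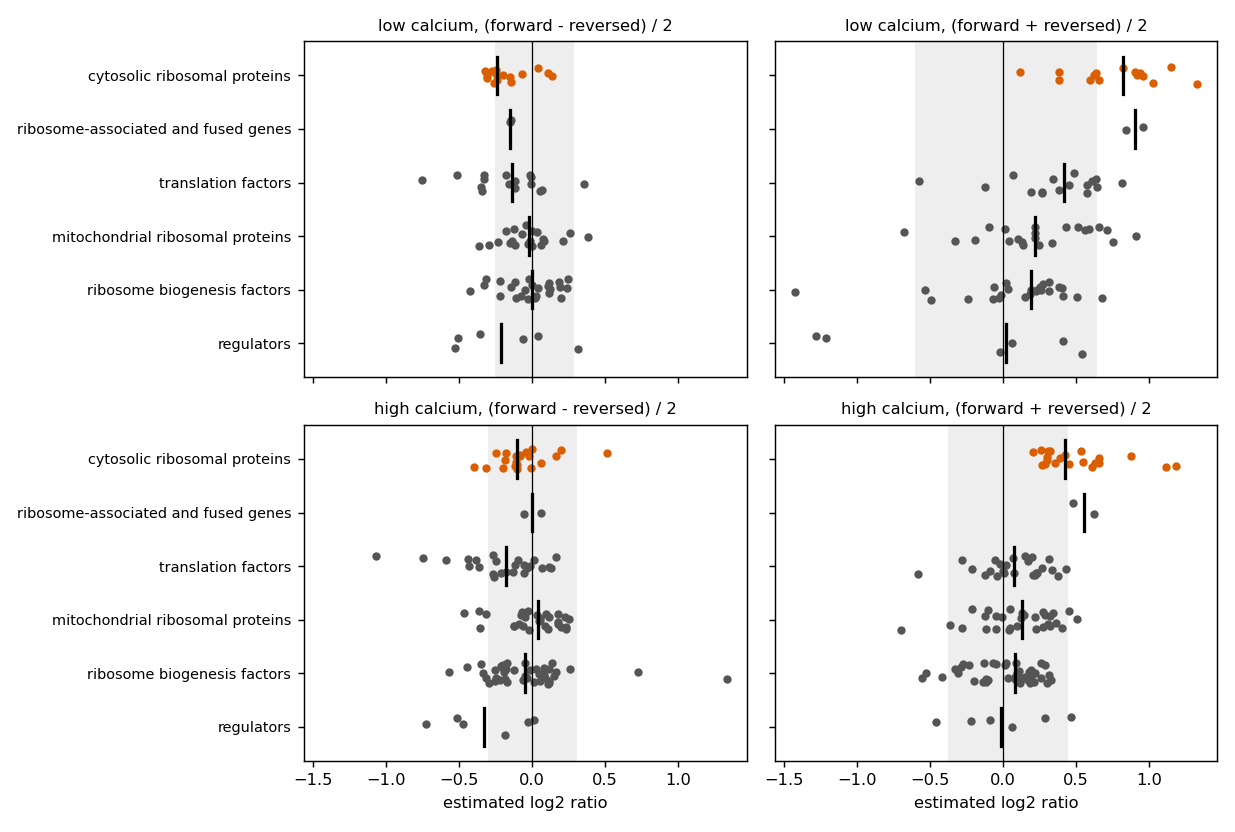
Estimated log2 ratio of each tested gene by group, in low (top) and high calcium (bottom), as turned (left) and kept-sign ratio (right); lines are group medians and the grey band spans the median ± SD of all rows. In the kept-sign panels all 15 and all 21 cytosolic ribosomal protein genes lie above 0, with medians of 0.82 and 0.42.

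No marker of another cell type passed the test by the turned ratio. In low calcium the medians of these markers, over 1 to 3 genes per group, lay above 0. The fibroblast, immune and endothelial groups each had 1 gene below 0 there. The median of the 3 keratinocyte markers tested in low calcium was -0.20, below 0 like that of the ribosomal protein genes. In high calcium it was -0.55 over 5 keratinocyte markers. By the turned ratio 0 of 3 fibroblast markers in low and 0 of 4 in high calcium, 0 of 3 and 0 of 3 immune markers, 0 of 2 and 0 of 2 endothelial markers, and the 1 melanocyte marker at neither level passed. Of the keratinocyte markers, Krt10, a keratin of differentiating cells, was called lower in high calcium. Medians of the turned ratio in low and high calcium were 0.13 and -0.02 for the fibroblast, 0.37 and 0.05 for the immune and 0.12 and -0.07 for the endothelial markers, and 0.27 and 0.31 for the melanocyte gene Dct, against -0.24 and -0.10 for the ribosomal protein genes. With the signs kept, the endothelial gene Cdh5 was called lower in low calcium (-0.90, limma adjusted p = 0.0347). Krt5, a keratin of basal keratinocytes, was called higher there (1.39, limma adjusted p = 0.0332). At that level 4 ribosomal protein genes passed, and 9.86% of all rows passed as lower and 6.56% as higher. The part of these markers in the ratios of the ribosomal protein genes was not tested. Nor was cross-hybridisation of the cDNA probes with the many copies of ribosomal protein genes.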

How the data were processed

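The authors deposited 1 log2 ratio per probe and array, per the file headers and the values (-7.88 to 4.60). That range is the basis for the log base, which no header gives. How spots were scanned, corrected, normalised and filtered is not given in the sources used, so the part that missing spots and dye correction play in the values is not known. Probes were named from the platform annotation and updated through gene IDs with RefSeq (GRCm38.p6). Probes of 1 gene were averaged on each array, which gave 8875 rows. The 14 probes that pair a ribosomal protein symbol with other genes were not counted as members. Like the other probes without a single symbol, they stayed among all rows as rows of their own.

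Arrays were centred on their medians, and pair values were fitted with limma 3.58.1 (lmFit and eBayes, R 4.3.3), with 3 pairs per calcium level in 1 fit and Benjamini-Hochberg adjustment over all rows tested. Genes with an adjusted p under 0.05 were called. A pair with a value on 1 array was missing. The spread common to all rows counted for 9.55 degrees of freedom in the turned fit and 4.24 in the kept-sign fit. The median of a row's own residual degrees of freedom was 2. The script was tested on simulated data. The number of arrays limits the precision.

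The members and lists were chosen with earlier results of these data known. Genes named from the members were those called, the 4 highest and 4 lowest per level, the 3 of smallest p for the difference, those with several probes, stalk proteins, paralogs and Rps6. Other members are given with the role they belong to. From other lists, called genes and some of the genes of smallest p were named, and Larp1 was named for its role after its values were seen. Alternatives covered orientation, single dye orientations, scaling, centring, incomplete pairs, rows, missing values, the variance prior, a replicate block and leaving out each pair.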

Additional observations from a re-analysis of the deposited data

How the results depend on the processing

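By the turned ratio 0 ribosomal protein genes were called in high calcium and for the difference under every alternative run, and in low calcium under every one except 2: the reversed arrays alone called 2 (Rpl19 and Rplp2) and the kept signs called 4. The median in low calcium was 0.82 with kept signs, 0.52 from forward arrays alone, -0.95 from reversed arrays alone and -0.09 without the pairs with few values (under 75% of probes on an array). In high calcium it was 0.42, 0.38 and -0.53 under the first 3 of these. The -0.09 came from low calcium repeat 1 alone. Scaled arrays gave -0.16 in low and -0.23 in high calcium. Kept signs turned Rplp2 in low calcium to 1.33. With the repeat number as a replicate block 0 genes were called and the medians were -0.26 and -0.12. Whether equal repeat numbers pair the samples cannot be told from these values. Deviations of equal numbers correlated at -0.03, -0.11 and 0.20 over 1381 rows, and 1 of 3 pairs at each level correlated best with its own number. For the kept signs, the 4 calls in low calcium became 0 with single arrays kept, 7 with the replicate block and 0 with centring on common probes. They became 6 with scaled arrays and 6 probes with each probe as its own row. Over rows with all 6 pairs 0 of 2 genes were called, but none of the 4 called genes was among these. When 1 pair was left out the count ranged from 0 to 10, and some called genes could then not be tested. The kept-sign median in low calcium was 0.31 without the pairs with few values, again from low calcium repeat 1 alone. In high calcium 2 genes (Rpl13a and Rplp2) were called with kept signs once arrays were scaled. The causes were not tested, apart from the fewer genes tested where pairs were dropped. Apart from the kept signs on every array, the share of all rows called was not counted under the alternatives. Counts of called genes under them thus do not single out the ribosomal protein genes. Of the turned ratios of named genes under alternatives, 375 kept their direction and side of the threshold and 73 changed sign with neither value called. The direction of many of the 375 was fixed in advance. Leaving out a pair leaves the estimate of the other calcium level as it was, and the variance prior changes no estimate. The 375 thus do not measure stability. Of the 73, 25 came from the kept signs and 18 from forward arrays only. The common-probe centring and the omission of pairs with few values were chosen after seeing the data, as were the alternatives on kept-sign counts. Missing spots limited the tests: 2 member genes had all 6 pairs.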

Other observations

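The 14 probes that the platform annotation assigns to a ribosomal protein gene together with other genes were not members, but stayed among all rows. Their median array values were above 0 on all 12 arrays, from 0.07 on the forward array of high calcium repeat 1 to 1.34 on the reversed array of low calcium repeat 3. In low calcium they were 0.32 forward and 0.41 reversed in repeat 1, 0.69 and 1.31 in repeat 2, and 1.11 and 1.34 in repeat 3. In high calcium they were 0.07 and 0.16 in repeat 1, 0.21 and 0.59 in repeat 2, and 0.95 and 1.18 in repeat 3.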
